A study of Mus musculus with 3 samples.

Results

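Uncharacterised and predicted transcripts are the genes that mouse annotation carries under a provisional symbol. They were taken here as every gene listed in the 3 deposited marker tables whose symbol ends in Rik or is Gm followed by digits only. This gave 70 transcripts, 36 Gm and 34 Rik, of 1039 listed genes (6.74%). They filled 144 of the 2750 marker rows (5.24%).

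A symbol ending in Rik comes from the RIKEN collection of sequenced mouse cDNA clones, and a Gm symbol is a gene model that annotation predicted before anyone had named it. Many such loci are long noncoding RNAs, which are transcribed and often spliced but hold no long reading frame. Others lie antisense to a coding gene or share the region of its start, and some are coding genes whose proper name came later. Long noncoding RNAs are often retained in the nucleus, and they are known as a class for restricted expression in brain cell types.

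The nuclei came from punches of the lateral septum, a GABAergic forebrain region, of 8 naive male C57BL/6J littermates aged 3 months. They were pooled, sorted by fluorescence and made into 3 droplet libraries of nuclear RNA, which form 1 group with no treatment, genotype or age contrast. Pieces of medial septum, triangular septum, prefrontal cortex or striatum may be among the punches, per the labels' protocols. The authors' tables cover all nuclei (25 clusters, called broad), the GABA neurons (22 subclusters) and nuclei labelled Sst (8 subclusters), and list 50 genes for each cluster.

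For each listed gene the authors give a log2 fold change of the cluster against all other nuclei of the table, and the share of nuclei with any read of the gene, inside the cluster and outside it. How many nuclei were sequenced, and how deeply, is unknown, and the libraries were not analysed here one by one. The values below therefore carry no replicate error, and no test was made. The transcripts are marker genes by the rule that chose them, and their fold changes are a description. A gene missing from a list of 50 may still be expressed in that cluster. Clusters keep the authors' numbers and are called like a cell type only where at least 3 of its marker genes were listed. Of 11 lateral septum markers, at most 2 were listed for a broad cluster. GABA subcluster 20 and Sst subcluster 1 listed 3 of them (Meis2, Nts and Sst) and were left unnamed, since both also listed the interneuron marker Chodl. Unnamed clusters are given by number and by their leading genes.

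GENCODE M21 on GRCm38, the assembly also called mm10, called 31 of the 70 transcripts lincRNA, 15 antisense and 20 protein coding. Of the 20 called coding, RefSeq held 13 as coding, 3 as long noncoding RNA, 1 as a pseudogene and 1 as a transcribed pseudogene, and 2 had no RefSeq entry. RefSeq gave 7 transcripts an ordinary gene name, so those were uncharacterised only in the older symbols of the tables. A position was found for 68 transcripts, on 18 chromosomes. Gm5089 had 2 loci and 4930448N21Rik none, and no position is given for them.

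Of the 68 transcripts with a position, 19 (27.9%) lay within 100 kb of a named gene that was listed for the same cluster. Among the 966 named genes with a position, 2.07% had another named gene so placed. The 19 transcripts formed 19 pairs with 17 named partners. In 13 pairs the genes lay on opposite strands, in 8 their spans overlapped, and in 7 their GENCODE starts were within 5 kb on opposite strands. In 17 of the 19 pairs every list that held the transcript also held the partner. Some partners were also listed without the transcript, such as Pld5 (7 lists, 2 shared), Meis2 (6, 2 shared) and Samd5 (5, 2 shared). Others, such as Htr1b and Nkx2-1, were not. The partners include receptors of acetylcholine and serotonin, transcription factors and cell surface proteins. Over all 68 transcripts, 20 overlapped a coding gene on the other strand. Reads of a transcript and of its antisense partner cannot be told apart, with the strand setting of the counting not given in the sources used here.

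Start regions of 2 pairs are shown because each pair begins on opposite strands close to each other. They are 2 of the 7 pairs with such starts within 5 kb. RefSeq (GRCm38.p6) held a start window, 250 bases before to 50 after a gene's start, for 39 of the 70 transcripts. The first pair is Gm26973 and Nkx2-1, a homeodomain transcription factor of the ventral forebrain. Capitals mark GGGCGG or CCAAT on either strand (CCGCCC or ATTGG when read on the other strand).
Gm26973, chr12:56536940-56537239, plus strand: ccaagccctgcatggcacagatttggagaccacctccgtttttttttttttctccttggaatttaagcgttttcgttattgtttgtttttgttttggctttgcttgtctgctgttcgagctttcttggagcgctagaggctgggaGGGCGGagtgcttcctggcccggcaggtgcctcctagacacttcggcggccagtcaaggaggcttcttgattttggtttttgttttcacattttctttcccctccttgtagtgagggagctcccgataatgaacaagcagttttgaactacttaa
Nkx2-1, chr12:56536859-56537158, minus strand: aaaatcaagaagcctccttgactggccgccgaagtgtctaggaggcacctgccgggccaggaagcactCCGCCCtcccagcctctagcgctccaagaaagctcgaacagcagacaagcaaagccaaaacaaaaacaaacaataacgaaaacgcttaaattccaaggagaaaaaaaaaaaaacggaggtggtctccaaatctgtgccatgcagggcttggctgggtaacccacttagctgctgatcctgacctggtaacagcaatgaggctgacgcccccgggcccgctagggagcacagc
The RefSeq starts of this pair lie 282 bases apart and the windows overlap by 219 bases, read from opposite strands, so the GGGCGG of the first is the CCGCCC of the second. The second pair is 9330158H04Rik and Chrm2, the M2 muscarinic acetylcholine receptor, whose RefSeq starts lie 150 bases apart and whose windows do not overlap.
9330158H04Rik, chr6:36388185-36388484, minus strand: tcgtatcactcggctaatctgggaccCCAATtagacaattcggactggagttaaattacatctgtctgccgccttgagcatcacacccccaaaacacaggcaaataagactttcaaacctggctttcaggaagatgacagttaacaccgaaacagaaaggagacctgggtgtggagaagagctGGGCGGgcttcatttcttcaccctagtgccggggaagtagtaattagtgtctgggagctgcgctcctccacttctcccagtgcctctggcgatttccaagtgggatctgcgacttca
Chrm2, chr6:36387834-36388133, plus strand: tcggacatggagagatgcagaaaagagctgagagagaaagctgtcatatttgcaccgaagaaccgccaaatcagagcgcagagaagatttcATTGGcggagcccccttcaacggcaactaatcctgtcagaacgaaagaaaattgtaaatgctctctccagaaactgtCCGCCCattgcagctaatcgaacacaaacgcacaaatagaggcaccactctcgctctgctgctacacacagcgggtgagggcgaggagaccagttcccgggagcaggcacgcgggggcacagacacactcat
Both windows of the second pair hold 1 GGGCGG and 1 CCAAT, and neither pair holds TATAAA. Of the 32817 start windows in the RefSeq table, 35.6% hold GGGCGG, 37.4% hold CCAAT and 13.6% hold TATAAA, counting both strands. The windows of Gm26973, Nkx2-1, 9330158H04Rik and Chrm2 hold 10, 12, 10 and 16 CpG dinucleotides, against a median of 7 over all windows. Fewer than 10 are held by 56.6% of all windows. Windows of other pairs with close starts differed. Those of D430036J16Rik, Htr1b, Gm15155, Ptchd1 and Pld5 hold no GGGCGG, that of G630016G05Rik holds 2, and that of Meis2 holds TATAAA. Their CpG ran from 6, in Gm15155 and Pld5, to 44 in Ptchd1. The GENCODE starts differ from the RefSeq starts by 1847 bases for Gm26973 and 1957 bases for 9330158H04Rik. With the GENCODE starts both pairs overlap in span. By the RefSeq starts, 9330158H04Rik and Chrm2 run towards each other, and Gm26973 and Nkx2-1 run apart.

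Receptor genes were the partners in 3 pairs. By the authors' deposited table, 9330158H04Rik (chr6:36209620-36390191, minus strand, lincRNA) was listed for broad clusters 12 and 19, GABA subclusters 7 and 15 and Sst subcluster 2, and each of these 5 lists also held Chrm2. In broad cluster 19, led by Foxp2, Adamts6 and Chrm2, it was found in 22.1% of nuclei against 3.4% of the others and Chrm2 in 69.7% against 23.2%, per the authors' deposited table. In broad cluster 12, led by Styk1, Etv1 and Iqgap2, the values per the authors' deposited table were 14.9% against 3.4% and, for Chrm2, 68.4% against 22.5%. The log2 fold change of the transcript was the higher of the pair in all 5 lists, from 1.74 in Sst subcluster 2 to 2.92 in GABA subcluster 15 per the authors' deposited table, where Chrm2 had 1.29 and 2.41. Chrm2 had a sixth list, GABA subcluster 4 (49.3% against 23.8% per the authors' deposited table), and that list held no Rik or Gm transcript.

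D430036J16Rik (chr9:81631551-81645156, plus strand, antisense) overlaps Htr1b, the serotonin 1B receptor, and both were listed together in 3 of 3 lists. Per the authors' deposited table it was detected in 7.5% of broad cluster 0 against 1.8% of the other nuclei, and Htr1b in 9.1% against 2.4%. Cluster 0, led by Col15a1, Ano2 and Cald1, is the largest broad cluster by the estimated share of nuclei, 15%. In the Sst table the pair was listed for subcluster 7 with log2 fold changes of 2.38 and 1.99 per the authors' deposited table. Unlike in the Chrm2 pair, the 2 levels of detection lay within 3 points of each other in every shared list. A830019P07Rik lies 34156 bases from Htr7, the serotonin 7 receptor, on the same strand. By the authors' deposited table both were listed for broad cluster 10 (12% against 5.1%, and 33.5% against 15.1% for Htr7) and for Sst subcluster 4 (14.2% against 3.1%, and 38.4% against 10.7%).

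Transcription factor genes were the partners in 5 pairs. Gm26973 was listed with Nkx2-1 for broad cluster 1 and GABA subcluster 6, both led by Slit2 and Pde3a among others. Per the authors' deposited table it was detected in 4.8% of subcluster 6 against 0.9% of the other GABA nuclei, and Nkx2-1 in 9.9% against 0.6%. Nkx2-1 held rank 1 by log2 fold change in that subcluster and Gm26973 rank 7. Gm26883 lies wholly inside Tshz2, a zinc finger factor, on the other strand, sharing 254858 bases of span. By the authors' deposited table Gm26883 was detected in 42.2% of broad cluster 23 against 1.3% of the others (log2 fold change 5.50), and Tshz2 in 100% against 7.0% (6.17). The pair came back in GABA subcluster 6 at a lower level, with 4.3% against 0.8% for Gm26883 and 20.3% against 4.2% for Tshz2 per the authors' deposited table. Tshz2 was also listed for broad cluster 18 (70.2% against 6.8% per the authors' deposited table), where Gm26883 was not.

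G630016G05Rik (chr2:116067225-116085911, plus strand, lincRNA) begins 1386 bases from Meis2, a homeodomain factor of the striatum and septum, on the other strand. Per the authors' deposited table it was detected in 24.4% of broad cluster 3 against 10.3% and in 24.7% of cluster 19 against 11.1%, and Meis2 in 92.3% against 55.7% and 92.8% against 57.7%. Gm27239 begins 685 bases from Sall3, a zinc finger factor, and both were listed for broad cluster 2 and GABA subcluster 0, which share the leading genes Cpa6, Prlr and Col6a3. In GABA subcluster 0 it held rank 1 by log2 fold change, 3.33, with detection in 4.3% against 0.4% per the authors' deposited table, and Sall3 was at 9.7% against 1.1%. An estimated 57.0% of the GABA nuclei with Gm27239 lay in that subcluster, which holds an estimated 11% of the GABA nuclei. C230014O12Rik, 63722 bases from the homeodomain factor gene Pbx3, was listed for 4 clusters and shared only broad cluster 3 with Pbx3, where it held rank 1 (8.7% against 1.5%, log2 fold change 2.67 per the authors' deposited table) and Pbx3 rank 25. The gene of a PHD finger protein, Phf24, was the partner of both 4930578G10Rik and Gm12394 in broad cluster 23, at 40.2% against 8.5% per the authors' deposited table.

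Cell surface, channel and signalling genes made up most of the other pairs. Gpc3, a heparan sulphate proteoglycan of the cell surface, overlaps both A630012P03Rik and Gm14582 on the other strand. All 3 were listed for broad cluster 11 and GABA subcluster 11, and Gpc3 is among the leading genes of both. In broad cluster 11 of the authors' deposited table, detection was 13.1% against 1.5% for A630012P03Rik, 17.4% against 2.9% for Gm14582 and 69.3% against 14.4% for Gpc3. The same 2 clusters listed Gm8239, 12100 bases from Pde1c, a calcium and calmodulin dependent phosphodiesterase, on the same strand. Gm8239 held rank 1 in both, with log2 fold changes of 3.95 and 3.93 per the authors' deposited table, yet was detected in 6.8% and 7.1% of the nuclei, where Pde1c was in 72.7% and 73.3%. Gpc3 was also listed for broad cluster 5 and GABA subcluster 12, at 31.3% and 37.5% of nuclei per the authors' deposited table, and neither list held the 2 antisense transcripts.

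4930590L20Rik overlaps Kcnt2, a sodium-activated potassium channel, on the other strand and was listed with it in 3 of 3 lists. By the authors' deposited table it was detected in 33.8% of broad cluster 12 against 14.9%, 33.2% of GABA subcluster 7 against 15% and 35.4% of Sst subcluster 2 against 13.7%. These are 3 of the 5 lists that held 9330158H04Rik and Chrm2. Gm15398 overlaps Pcdh15, a protocadherin, and was detected in 38.3% of GABA subcluster 20 against 10.2% and 37.7% of Sst subcluster 1 against 10.2% per the authors' deposited table. Pcdh15 was in 99.3% of both, against 78.5% and 79.8% of the other nuclei, so it was detected widely outside them. By the GENCODE starts, Gm38101 begins 901 bases from Pld5, a phospholipase D family gene. The nearest RefSeq start of Pld5 lies 61370 bases from its GENCODE start. Gm38101 was detected in 4.8% of broad cluster 5 against 0.6%, and Pld5 in 89.2% against 37.1%, per the authors' deposited table. Gm9930, 87255 bases from Samd5, was detected in 14.9% of broad cluster 24 against 0.9% and Samd5 in 71.6% against 6.5% per the authors' deposited table.

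A pair and a list that held it made 38 combinations, and some lists, such as that of broad cluster 11, held several pairs. In 35 of the 38 the partner was detected in more nuclei than the transcript. The log2 fold change of the transcript was the higher in 28. The exceptions in detection were 3. Gm15155 begins 927 bases from Ptchd1, a membrane protein gene, and per the authors' deposited table was detected in 55.7% of GABA subcluster 16 against 43.5% for Ptchd1. 1700011I03Rik, now Ccdc192, was detected in 13.9% of broad cluster 18 and Ctxn3, a cortexin gene, in 3.0% per the authors' deposited table. 4930578G10Rik was detected in 60.9% of broad cluster 23 and Phf24 in 40.2% per the authors' deposited table.

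**Figure D1:**
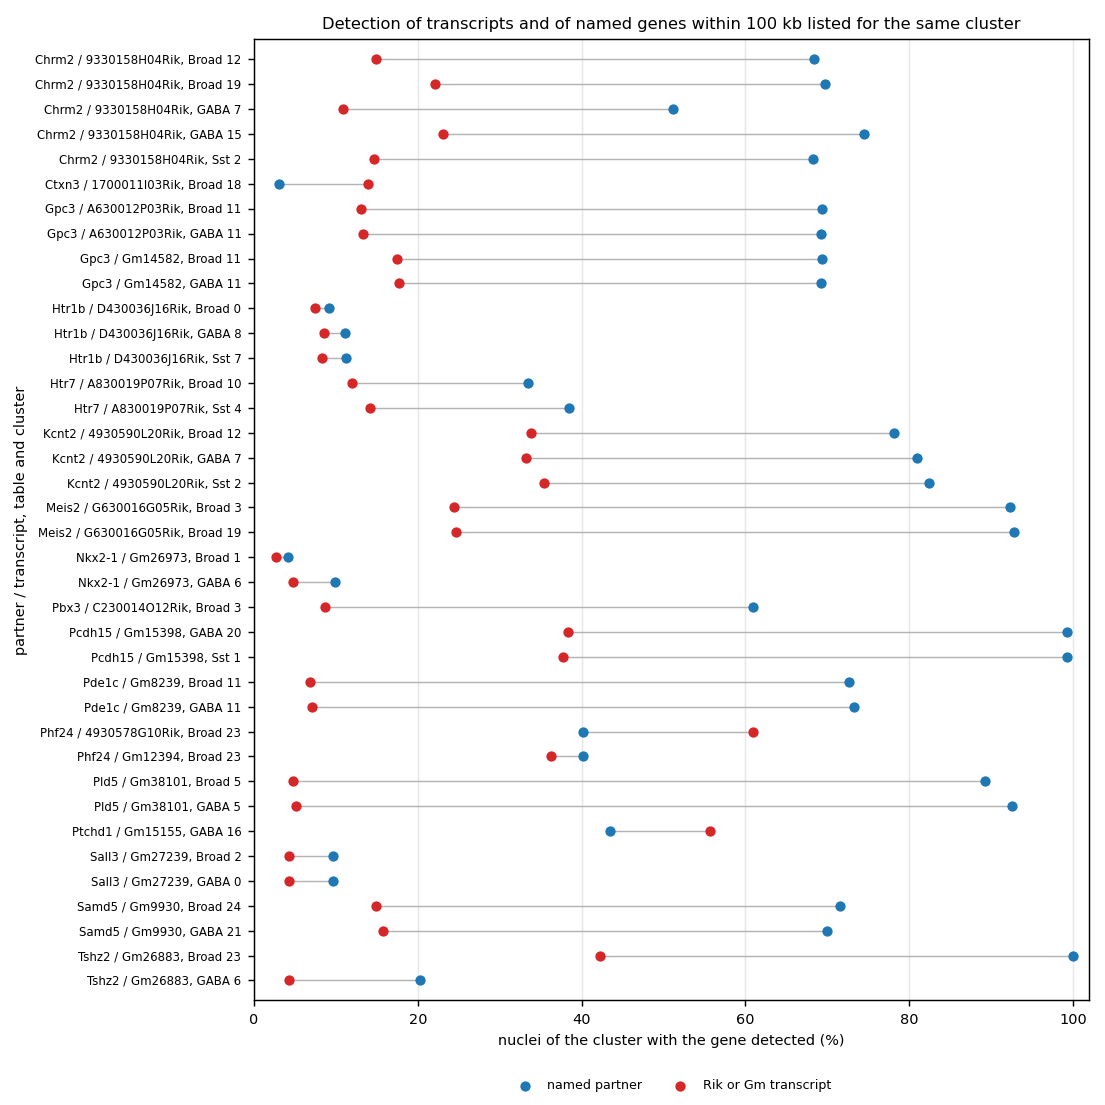
Percentage of nuclei of the listing cluster in which each Rik or Gm transcript (red) and its named partner (blue) were detected. Each of the 38 lines is 1 pair in 1 cluster of 1 table, some clusters recur with several pairs, and no error bars exist. The blue point lies to the right in 35 of 38, by the widest gap for Pld5, and the points of D430036J16Rik and Htr1b lie close together.

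A position next to a listed gene did not always bring a shared list. Gm13629 (overlapping Scn9a, a sodium channel), Gm2245 (overlapping Fyb, an adaptor protein), Gm43948 (overlapping Pdzrn3, a ubiquitin ligase), Gm29478 (15126 bases from Zic4, a zinc finger factor) and 4933427D14Rik (18151 bases from Pitpnm3) lay within 100 kb of a listed gene and shared no list with it. The other 44 transcripts with a position had no listed named gene within 100 kb. Of the transcripts not called coding, 15 of 48 had a partner, and of those called coding 4 of 20. Of the 8 listed named genes that GENCODE does not call coding, 0 had such a neighbour.

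The glia-like clusters listed 5 of the transcripts. The astrocyte-like broad cluster 8, with 7 of 10 astrocyte markers listed, held Gm3764 alone, found in 81.2% of these nuclei against 20.2% elsewhere with a log2 fold change of 3.09 per the authors' deposited table. Gm3764 (chr3:88206813-88229959, plus strand, lincRNA) held the named miRNA genes Mir9-1 and Mir3093 on its own strand, and no other of the 68 transcripts with a position held a named miRNA gene that way. miR-9 is a brain miRNA known for its part in neural progenitor cells and neuron formation. Its mature forms are shown because they lie inside the transcript, as RefSeq gives them on GRCm38.p6, with the seed, bases 2 to 8, in capitals.
mmu-miR-9-5p, chr3:88215613-88215635, plus strand: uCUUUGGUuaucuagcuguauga
mmu-miR-9-3p, chr3:88215652-88215673, plus strand: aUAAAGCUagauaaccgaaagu
The 2 arms have different seeds, and mature miRNAs were not measured in these libraries.

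The oligodendrocyte-like cluster 9, with 9 of 10 markers, held Gm16168 (31% against 2.1%, log2 fold change 4.28) and 1700047M11Rik (17.8% against 1.2%, 4.3) per the authors' deposited table. For both, an estimated 37.7% and 37.8% of the positive nuclei of the table lay in cluster 9, which holds an estimated 3.94% of its nuclei. Gm16168 was listed again for the oligodendrocyte precursor-like cluster 20, at 23.2% against 2.9% per the authors' deposited table. Cluster 20, with 6 of 7 precursor markers and 3 of 5 of newly formed oligodendrocytes, also held Gm4876 (47.4% against 10.7%) and 5730559C18Rik (3.5% against 0.0%) per the authors' deposited table. The latter is now Inava, named for innate immune activation. Gm4876 overlaps Tes on the other strand, and Tes was not listed.

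Detection inside was highest in broad clusters 13, 15, 7 and 17. Gm28928 (chr1:124505757-124846039, minus strand, lincRNA) was detected in 100% of the nuclei of broad cluster 13 against 22.1%, 98.4% of cluster 15 against 22.3% and 97.4% of cluster 7 against 19.9%, per the authors' deposited table. Cluster 13 is cortical or hippocampal excitatory neuron-like, with Neurod6 and Slc17a7 among the markers listed, and clusters 7 and 15 are unnamed. In the GABA table Gm28928 was listed for subclusters 9 (37.8% against 14.9%) and 6 (23.1% against 15.6%), per the authors' deposited table, so it was not confined to these clusters. Gm20754 (chr3:73066316-73594830, plus strand, lincRNA) was detected in 96.4% of the excitatory neuron-like cluster 17 against 11.9%, with a log2 fold change of 4.72 per the authors' deposited table. It was also listed for interneuron-like clusters, at 38.0% in broad cluster 16, 47.6% in GABA subcluster 17 and 47.6% in Sst subcluster 6 per the authors' deposited table, and not for GABA subcluster 19, which is interneuron-like too.

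Broad cluster 7, led by C1ql3, Itga8 and Slc30a3, held 5 transcripts. Besides Gm28928 they were A830018L16Rik (88.7% against 27.8%), A930011G23Rik (55.8% against 11.6%), 9530026P05Rik (40.8% against 3.9%, log2 fold change 3.85) and 6530403H02Rik (31.7% against 5.3%) per the authors' deposited table. A830018L16Rik is held as coding by both annotations. A930011G23Rik, with no strand in the RefSeq table, shares 431817 bases of span with Rasgef1b, and it came back in GABA subclusters 13, 8 and 3 at 39.0%, 23.4% and 18.9% of nuclei per the authors' deposited table. Clusters 13 and 17 further listed 3110035E14Rik (now Vxn, a gene known in frog for neurogenesis; 33.5% against 5.1%), Gm2824 (15.1% against 1.2%) and Gm43154 (17% against 1.0%) per the authors' deposited table. The Slc17a6 glutamatergic neuron-like cluster 18 listed 1700011I03Rik alone, and cluster 21, which also lists Slc17a6, held 3300002A11Rik (30.7% against 3.7% per the authors' deposited table) with a pair of transcripts of low detection described below.

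Broad cluster 23 held the most transcripts, 7 of its 50 rows. It is excitatory neuron-like, with Fezf2, Neurod6, Slc17a7 and Tshz2 listed, and is led by Tshz2, Vwc2l and Nxph3. Per the authors' deposited table, 6530403H02Rik was detected in 60.9% of the nuclei against 6.1% (log2 fold change 4.08) and Gm28905 in 61.3% against 9.2% (3.36). 6530403H02Rik was listed for 4 broad clusters, 7, 14, 17 and 23, with detection inside from 31.7% to 60.9% per the authors' deposited table. Besides these and Gm26883, the cluster held 4930578G10Rik (60.9% against 8.2%), Gm2163 (69.9% against 14.1%), Gm12394 (36.3% against 4.8%) and Gm10600 (18.8% against 1.6%) per the authors' deposited table. These 4 lie together on chromosome 4, between 42240639 and 42856771 on GRCm38, and 4930578G10Rik and Gm12394 overlap on opposite strands by 64321 bases.

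The 4 transcripts of chromosome 4 are in a duplicated stretch and their counts are uncertain. Of the 31-base words of their annotated transcripts, 95.4% for Gm10600, 93.2% for Gm2163, 63.6% for Gm12394 and 29.1% for 4930578G10Rik also occur in transcripts of other genes, so the authors' counting could divide or drop their reads. Broad cluster 15 listed 2 of the 4 as well, 4930578G10Rik at 56.8% against 7.7% and Gm2163 at 42.5% against 14% per the authors' deposited table. Elsewhere Gm20649 shares 99.0% of its words, mostly with Onecut1, and Gm8104 shares 75.4%. The highest value among the other transcripts measured was 5.9%, for Gm2245. 4930448N21Rik, A930011G23Rik and Gm5089 were matched to no single GENCODE gene and were not measured.

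The striatal medium spiny neuron-like clusters held 2 transcripts in the broad table and 4 in the GABA table. Broad cluster 14 (10 of 11 markers) and GABA subcluster 13 (9 of 11) both listed 6530403H02Rik and 4930448N21Rik. By the authors' deposited table the first was detected in 34.0% of cluster 14 against 6.0% and in 34.6% of subcluster 13 against 2.7%, where its log2 fold change was 4.62. 4930448N21Rik was at 28.7% in both, against 3.4% and 2.0%, and was also listed for the excitatory neuron-like cluster 17 at 31.4% per the authors' deposited table. Subcluster 13 added 9430020K01Rik (10.3% against 0.5%), which is now Jcad, a gene of cell junctions, and A930011G23Rik (39.0% against 9.3%) per the authors' deposited table.

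**Figure D2:**
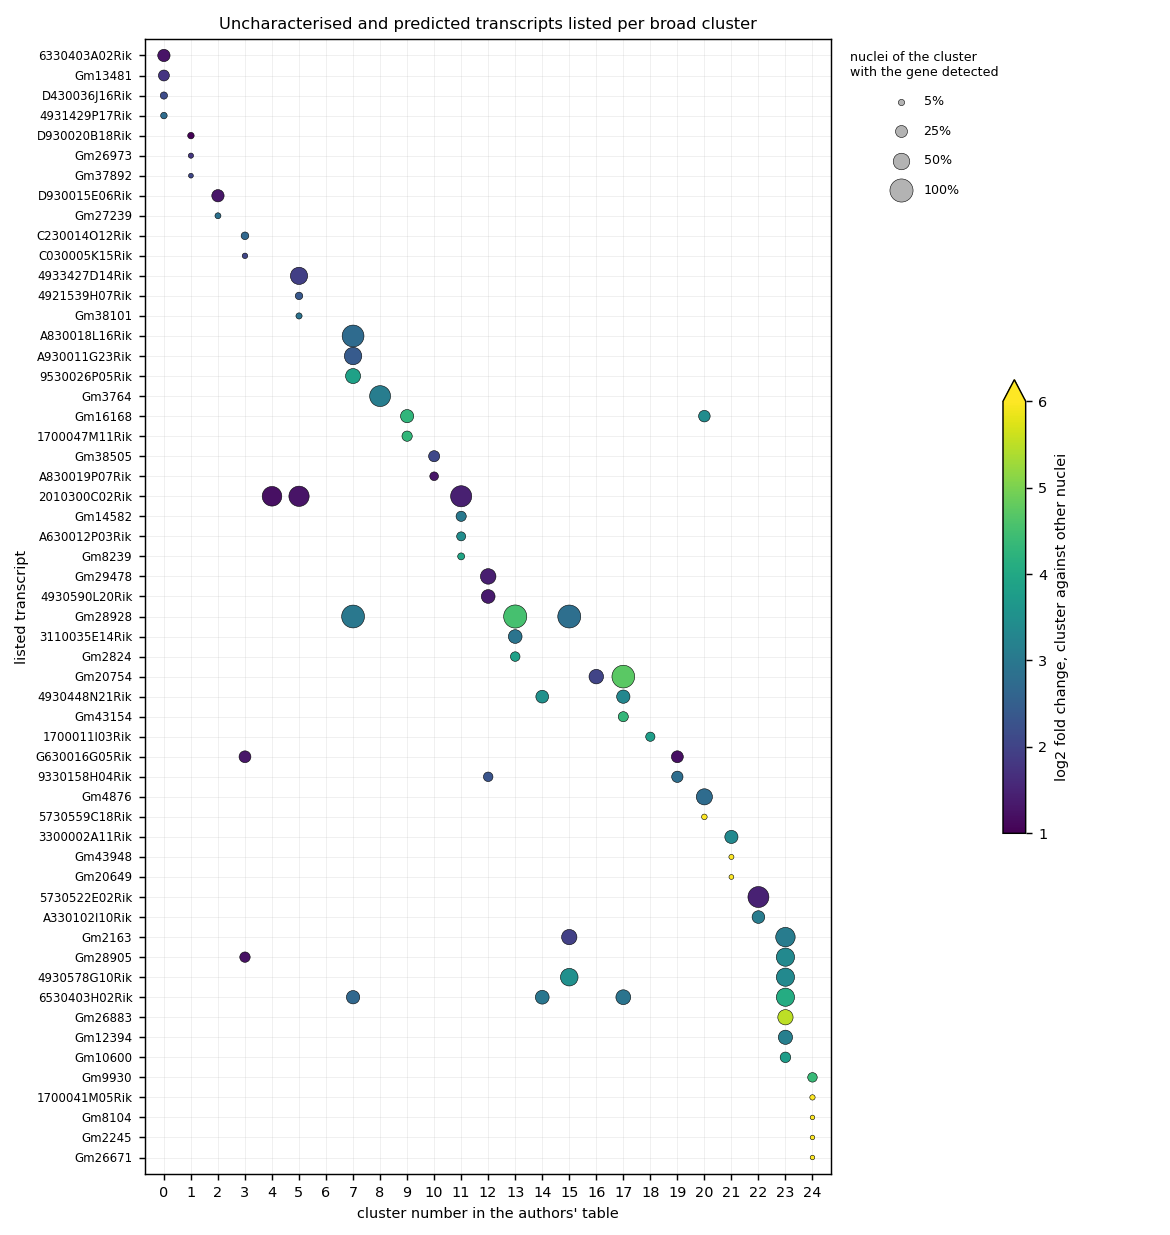
Each point is a Rik or Gm transcript listed for a broad cluster; its area gives the percentage of the cluster's nuclei with the gene detected and its colour the log2 fold change, cluster against other nuclei, with the scale ending at 6. Cluster 23 holds 7 points and cluster 6 none, and the largest points belong to Gm28928 in clusters 7, 13 and 15 and to Gm20754 in cluster 17.

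The GABA table listed 48 of the transcripts, 10 of them in no other table, and each of 20 of its 22 subclusters held at least 1. Subclusters 4 and 19 held none. Subcluster 6, with 6, held the most. Besides Gm26973, Gm26883, Gm28905 and Gm28928 it listed Gm37892 (3.0% against 0.6%) and Gm30382 (12.6% against 6.2%) per the authors' deposited table. Subcluster 8, led by Col15a1, Thsd7a and Wfs1, held 5. Among them Gm13481 was detected in 28.4% against 8.6%, 4931429P17Rik in 8.0% against 1.6% and 6430628N08Rik in 4.7% against 0.9% per the authors' deposited table. Gm13481, 4931429P17Rik and D430036J16Rik were listed together also for broad cluster 0 and for Sst subcluster 7. In that Sst subcluster they were detected in 29.0%, 7.8% and 8.3% of nuclei per the authors' deposited table, and an estimated 48.5%, 65.7% and 50.4% of the positive nuclei of the table lay there, where an estimated 18.1% of its nuclei are.

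GABA subcluster 3, led by Stk31, Il1rapl2 and Cntn5, listed 5 transcripts, and Sst subcluster 0, with the same leading genes, also 5, the most in the Sst table. C030005K15Rik, C230014O12Rik and Gm5441 were in both lists, at 3.2%, 7.7% and 5.8% of the nuclei of GABA subcluster 3 and 3.2%, 7.5% and 5.9% of Sst subcluster 0 per the authors' deposited table. The remaining 2 of Sst subcluster 0 were D930020B18Rik (6.4% against 2.4%) and Gm43248, held as Gm38413 in RefSeq (2.2% against 0.4%) per the authors' deposited table. GABA subcluster 3 added Gm10851 (8.5% against 4.3%) and A930011G23Rik per the authors' deposited table. Detection in Sst subcluster 0 stayed below 8% for all 5 transcripts.

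Among the other transcripts of the GABA neurons, 5730522E02Rik and A330008L17Rik were detected in most nuclei of each listing cluster and in many outside it. 5730522E02Rik, with an annotated span of 608001 bases, was detected in 81.7% of broad cluster 22 against 50.3% and in 81.0% of GABA subcluster 18 against 50.3% per the authors' deposited table. The same clusters listed A330102I10Rik, at 28.2% in both, against 4.6% and 3.7% per the authors' deposited table. A330008L17Rik was detected in 72.5% of GABA subcluster 16 against 34.1%, 55.6% of subcluster 10 against 33.8% and 73.1% of Sst subcluster 4 against 40.7% per the authors' deposited table. Gm29478 was detected in 43.7% of broad cluster 12, 45.6% of GABA subcluster 7 and 51.9% of Sst subcluster 5 per the authors' deposited table. Gm38505 was detected in 21.1% of broad cluster 10 and 23% of GABA subcluster 12, and D430041D05Rik in 35.5% of GABA subcluster 15 against 18.2%, per the authors' deposited table. Gm5089 (15.1% against 5.1%, GABA subcluster 2) and Gm13629 (12.6% against 3.4%, GABA subcluster 14) were each listed for 1 subcluster of the authors' deposited table.

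**Figure D3:**
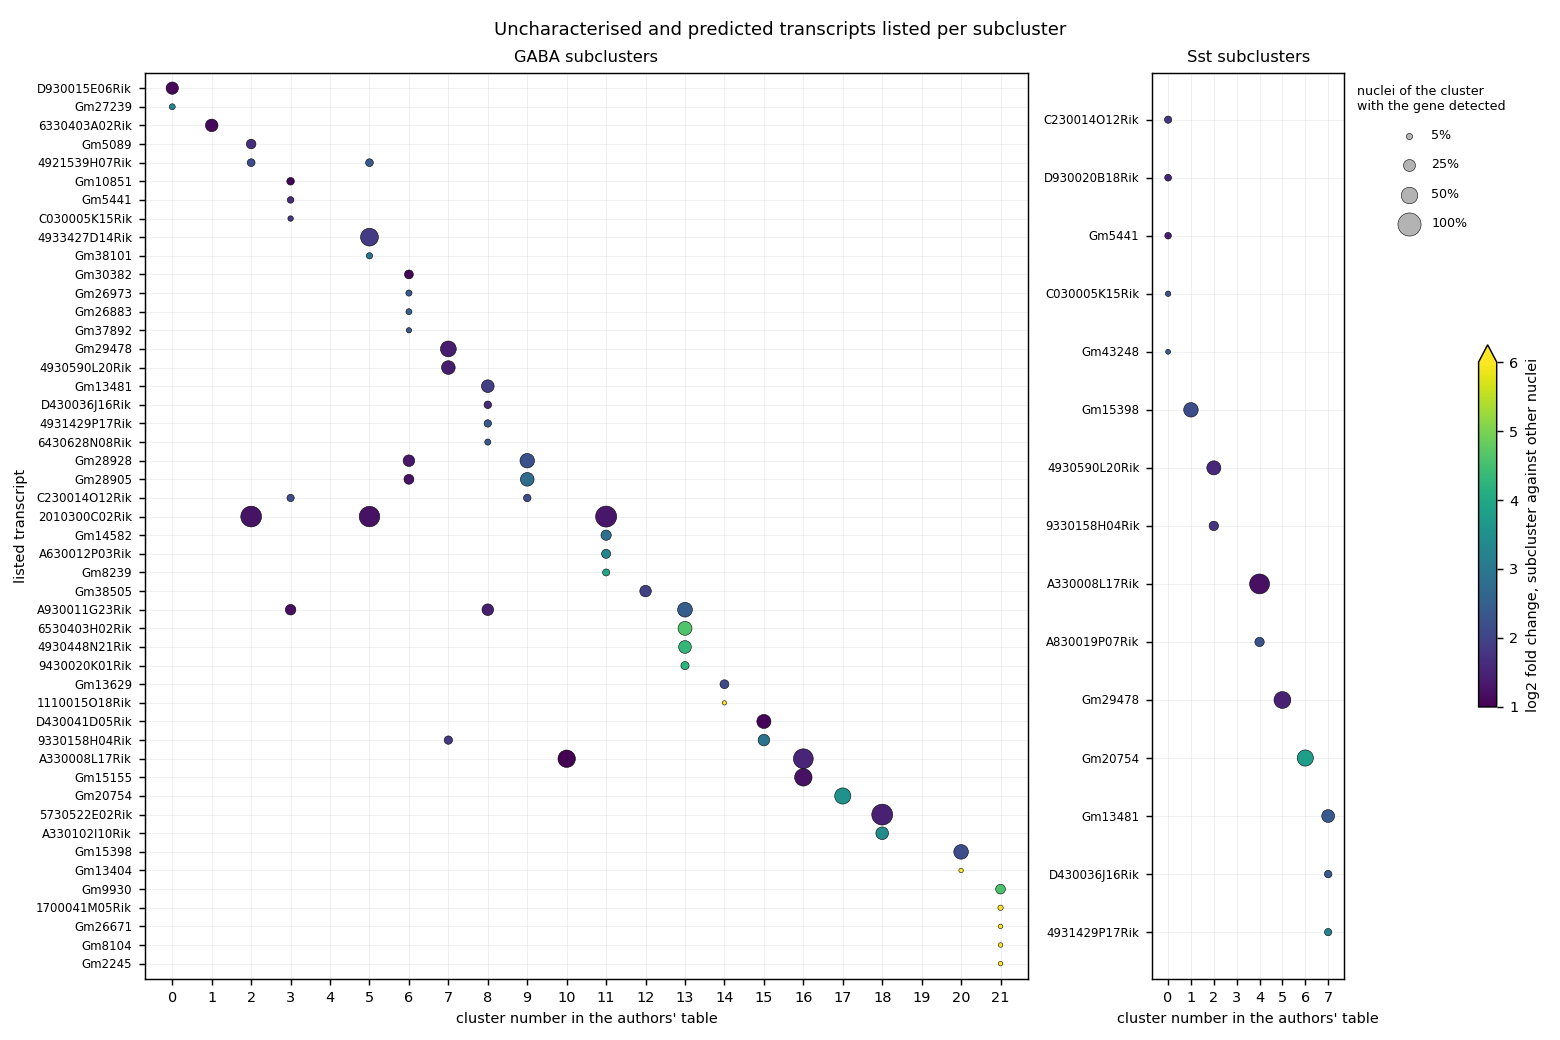
Each point is a Rik or Gm transcript listed for a GABA subcluster (left) or an Sst subcluster (right), with area for the percentage of nuclei detected and colour for the log2 fold change, the scale ending at 6. GABA subclusters 4 and 19 and Sst subcluster 3 have no point, and 2010300C02Rik has large points in GABA subclusters 2, 5 and 11.

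Of the 13 transcripts held as coding by both annotations, 5 were listed in both the broad and the GABA table, of which Gm8104 is described with those of low detection. 2010300C02Rik, now Cracdl, was listed for 3 broad clusters and 3 GABA subclusters, with detection inside from 71.3% to 82.9%, detection outside from 45.4% to 49.3% and log2 fold changes from 1.21 to 1.44 per the authors' deposited table. It thus differed little between the clusters that listed it. 4933427D14Rik was detected in 54.6% of broad cluster 5 against 22.3% and 58.1% of GABA subcluster 5 against 24.5% per the authors' deposited table, and the noncoding 4921539H07Rik of the same clusters in 8.2% and 9.0%. 6330403A02Rik, now Stum, related to a fly gene of mechanosensory neurons, was at 26.6% in broad cluster 0 and 27.8% in GABA subcluster 1 per the authors' deposited table. D930015E06Rik, now Tmem131l, was at 26.6% in broad cluster 2 and 26.5% in GABA subcluster 0 per the authors' deposited table.

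In each table the transcripts had a higher median log2 fold change and a lower median detection than the lists as a whole. The median log2 fold change of their rows was 2.93 against 2.11 over all rows in the broad table, 2.16 against 1.67 in the GABA table and 2.15 against 1.74 in the Sst table, per the authors' deposited tables. Median detection inside was 26.6% against 45.8%, 16% against 38.9% and 14.2% against 35.3%, and median detection outside 4.60% against 13.6%, 3.45% against 14.3% and 3.10% against 12.2%, in the same order of the authors' deposited tables. A log2 fold change of at least 2 was reached by 54 of 71 rows (53.5% of all rows), 32 of 58 (38.5%) and 8 of 15 (39.8%). Detection in at least 25% of the cluster was reached by 36 of 71 rows (73.5% of all rows), 22 of 58 (66.6%) and 6 of 15 (65.5%). Detection under 5% held for 12 of 71 rows (3.44% of all rows), 12 of 58 (3.82%) and 2 of 15 (3% of all rows). A listing for a single cluster held for 45 of 56 transcripts (65.7% of all genes), 40 of 48 (63.4%) and 15 of 15 (88.1%). The estimated part of a transcript's positive nuclei that lay in the listing cluster had a median of 14.8%, 17% and 48.5% over the rows of the transcripts, and 10.7%, 11% and 27.8% over all rows. The lists themselves were picked on these measures, so nothing is read from these counts.

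**Figure D4:**
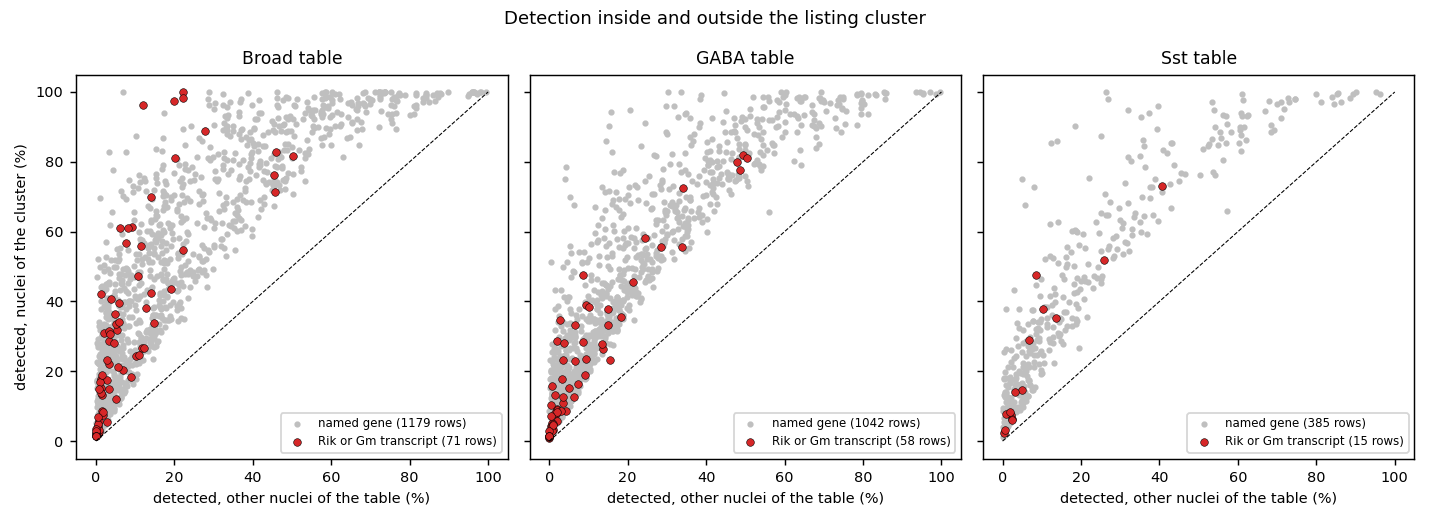
Detection inside the listing cluster (vertical, % of nuclei) against detection in the other nuclei of the table (horizontal, %), with 1 point per marker row, red for Rik and Gm transcripts and grey for named genes; the dashed line marks equal detection. Most red points crowd the lower left corner, and Gm28928 and Gm20754 stand in the upper left of the broad table.

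The transcripts of largest log2 fold change were detected in very few nuclei. Of the 144 rows, 13 rows of 9 transcripts were listed at 0% outside the cluster, and their detection inside ran from 1.0% to 3.5% with log2 fold changes from 5.99 to 10.3 per the authors' deposited tables. With no detection outside at the 3 decimals given, such a fold change depends on the offset, not given in the sources used here. Broad cluster 24 and GABA subcluster 21, the smallest clusters of their tables with an estimated 0.246% and 0.343% of the nuclei and led by Spp1, Six3 and Col11a1, listed 1700041M05Rik, Gm2245, Gm26671 and Gm8104. Per the authors' deposited table for all nuclei, 1700041M05Rik held rank 1 in cluster 24 at 3.0% and the other 3 were at 1.5%. The others were 5730559C18Rik in broad cluster 20, Gm43948 (2.4%) and Gm20649 (1.9%) in broad cluster 21, 1110015O18Rik (1.0%) in GABA subcluster 14 and Gm13404 (1.3%) in GABA subcluster 20 of the authors' deposited tables. With no count of nuclei given, detection this low in a small cluster may rest on as few as 1 nucleus. Such rows are not read as a trait of the cluster. At least 1 transcript was among the top 5 by log2 fold change in 24 of the 55 clusters. The transcripts filled 18 of 125, 15 of 112 and 3 of 40 such rows in the broad, GABA and Sst tables. Of all rows they were 5.68%, 5.27% and 3.75%. Among the transcripts' top 5 rows, 9 of 18, 8 of 15 and 2 of 3 were detected in under 5% of the cluster. Over all genes so ranked it was 25 of 125, 29 of 112 and 7 of 40.

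Detection went with the length of the gene. The median annotated span was 64.8 kb for the 68 transcripts with a position and 133.5 kb for the named genes. In the broad table the median of the highest detection was 51.6% for 20 transcripts over 100 kb, 13.1% for 29 of 10 to 100 kb and 4.55% for 6 under 10 kb, per the authors' deposited table. Across transcripts, Spearman's rho of span and highest detection was 0.62 (n = 55), 0.72 (n = 46) and 0.74 (n = 15) in the broad, GABA and Sst tables. Across the named genes of the same tables it was 0.67 (n = 776), 0.71 (n = 655) and 0.72 (n = 337). The points share libraries and nuclei, and these values are descriptions across genes. Gm3764, with a short span for its 81.2%, was among the transcripts furthest from the trend.

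**Figure D5:**
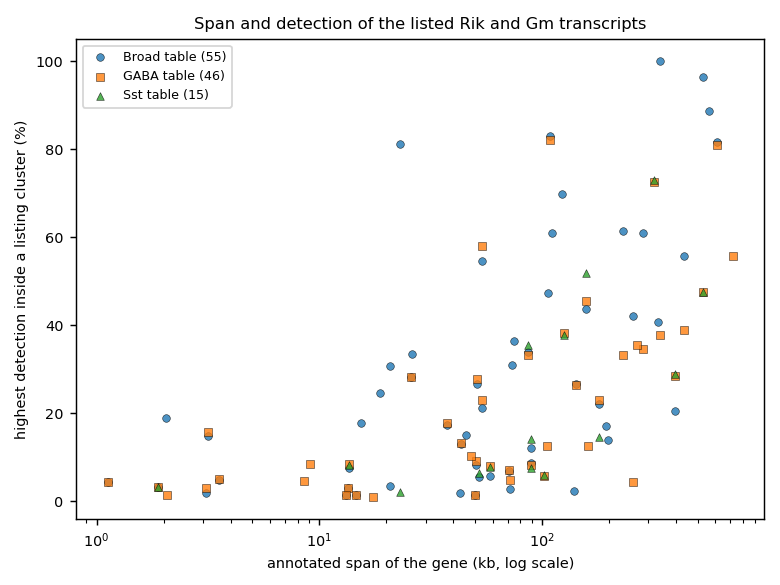
Highest detection inside a listing cluster (vertical, % of nuclei) against annotated span (horizontal, kb, log scale) for each Rik or Gm transcript with a position, with the table given by colour and shape. Points under 10 kb stay below 20%, and the points above 60% lie over 100 kb except Gm3764.

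The tables share nuclei, so a transcript listed in several of them was seen again rather than found anew. Of the 70 transcripts, 19 were listed in the broad table alone, 26 in the broad and GABA tables and 9 in all 3. Of the 40 transcripts listed in more than 1 table, 36 were in clusters that matched best by shared genes. Over 57 rows set against the matched cluster of another table, the median difference in detection inside was 0.8 points, and 50 rows differed by at most 5 points. The largest difference was 15 points, for Gm28905, detected in 33.3% of GABA subcluster 9 and 18.3% of broad cluster 3 per the authors' deposited tables.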

How the data were processed

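The files were 3 marker tables made by the authors from 1 group of 3 pooled-animal libraries of nuclear RNA. Per the submitters' processing notes, the authors worked with Seurat 4 on build mm10. Aligner, strand setting, nucleus filters, clustering steps and the treatment of doublets were not given in the sources used here. Every fold change of the authors is an average on the log2 scale, per the file headers, with an unknown offset. Detection is a deposited fraction of nuclei with 3 decimals, multiplied here by 100. The test behind the deposited p-values was not stated, and with no value per animal they cannot measure spread between mice. They served only as a filter at an adjusted 0.05, which removed no transcript.

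The members and lists were chosen with earlier results of these data known. Named are the 8 transcripts of highest log2 fold change per table with detection of at least 10%, those listed for 3 or more clusters of a table, those listed for a single cluster in at least 2 tables, those with a listed neighbour within 100 kb, those called coding and those of the cluster with most members in each table. Any other transcript was named to account for all 70, after its values were seen. Genes leading a cluster are the 3 of highest log2 fold change detected in at least 25% of its nuclei.

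Shares of nuclei per cluster were estimated by least squares, since overall detection of a gene listed for several clusters must be equal from each. The part of positive nuclei in a cluster follows from the share. The solution was tested on simulated tables. Positions, 1-based, came from GENCODE M21 and RefSeq GRCm38.p6: 60 transcripts matched by symbol, 7 by their current symbol and 1 in RefSeq only. Shared sequence was measured as 31-base words of annotated transcripts. The tools were Python 3.11.15 with matplotlib 3.10.9, scipy 1.17.1, pandas 2.3.3 and numpy 2.4.6.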

Additional observations from a re-analysis of the deposited data

How the results depend on the processing

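The alternatives were thresholds on adjusted p, detection and fold change, a wider symbol pattern, other rankings, other solutions for the shares and other distances. Detection of at least 25% left 30 of the 70 transcripts, 3.92% of broad rows and 3.0% of GABA rows, 18 broad, 17 GABA and 6 Sst transcripts with a single-cluster listing, and median log2 fold changes of 2.94, 1.48 and 1.87. A log2 fold change of at least 2 gave 8.07% of broad rows, 7.55% of GABA rows and 8 single-cluster Sst listings. With 1 row per gene the median log2 fold change was 3.08 in the broad and 2.38 in the GABA table. The median part of positive nuclei, 14.8% in the broad and 48.5% in the Sst table, became 15.1% and 48.4% with shares in ratio form. Ranked by difference in detection, 7 clusters in place of 24 had a transcript among their top 5. Of the 19 transcripts with a listed neighbour, 12 had it within 10 kb and 8 overlapped it. In a check added after seeing the data, 11 had a partner that did not overlap, and 17 were left without the duplicated stretch of chromosome 4.

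No paired analysis was possible because the tables hold no value per library, and no library was left out for that reason. The depth is unknown, and no floor is given for the transcripts listed at 0% outside their cluster. Lists of 50 genes hide lower-ranked transcripts.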

Other observations

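A fixed list of 37 ordinary gene names was set beside the Rik and Gm transcripts. It was drawn up for long noncoding RNAs but also holds the coding gene Gas6. Of these names, 4 were listed (Rmst, Neat1, Otx2os1 and Pvt1), and B9d1os was found by its ending. Neat1, the RNA around which nuclear paraspeckles form, was detected in 42.9% of the oligodendrocyte-like cluster 9 against 4.9% per the authors' deposited table. Rmst, a neuronal long noncoding RNA, was detected in 74.8% of broad cluster 21 against 8.4% and in 41.3% of GABA subcluster 14 against 5.0% per the authors' deposited table. Otx2os1, which is transcribed opposite the homeobox gene Otx2, was detected in 19.4% of GABA subcluster 12 against 2.1% per the authors' deposited table. Pvt1 was detected in 36.0% of GABA subcluster 3 against 18.8% per the authors' deposited table. B9d1os was detected in 3.0% of broad cluster 24 against 0.0% per the authors' deposited table, where 1700041M05Rik was at 3.0% too.

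A wider pattern for provisional symbols added 1 gene, AI593442, detected in 47.4% of broad cluster 4 against 24.7% and in 52.9% of GABA subcluster 2 against 27.3% per the authors' deposited table.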
